A study of Mus with 3 samples.

Results

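Group 2 innate lymphoid cells (ILC2s) were drawn from single-cell transcriptomes of whole mouse lung, and 138 of 14441 kept cells were counted as ILC2s. The gate, which selected members on their own measured UMI counts, first kept cells with 200 genes or more and no more than 20% mitochondrial UMIs. A UMI (unique molecular identifier) marks 1 captured RNA molecule. Of a barcode found in both the DJ-1 KO OVA and the WT PBS library, the cell with fewer UMIs was dropped. A kept cell was an ILC2 member when it held UMIs of Ptprc and Il7r, of Gata3 or Il1rl1, and of at least 2 of the 7 genes Gata3, Il1rl1, Rora, Areg, Il5, Il13 and Hlf. It also had to hold 0 UMIs of Cd3d, Cd3e, Cd3g, Cd79a, Ncr1, Mcpt8 and Ms4a2, which mark T cells, B cells, NK cells, basophils and mast cells. The gate found 63 members in DJ-1 KO OVA, 50 in WT OVA and 25 in WT PBS.

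The 3 libraries were made from total lung cells of female mice aged 6 to 12 weeks. DJ-1 KO OVA held cells of DJ-1 knockout mice challenged with ovalbumin (OVA), the allergen of a common asthma model. WT OVA held cells of wild-type mice given the same challenge, and WT PBS held cells of wild-type mice challenged with saline. Each group was 1 library pooled over 3 mice, so the values have no replicate check, no test was possible, and the intervals below cover counting error only. For WT PBS, the sample title speaks of OVA, whereas the treatment label and the library name give PBS, which was followed here.

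ILC2s are tissue-resident lymphocytes without rearranged antigen receptors. Epithelial alarmins reach them through receptors such as the IL-33 receptor chain encoded by Il1rl1, and the transcription factors Gata3 and Rora maintain their identity. Activated ILC2s of the lung secrete IL-5, which sustains eosinophils, IL-13, which drives mucus and airway reactivity, and amphiregulin (Areg), an epidermal growth factor receptor ligand. DJ-1, encoded by Park7, is a small protein linked to the oxidative stress response.

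The ILC2 members held 269515 UMIs in DJ-1 KO OVA, 183150 in WT OVA and 118552 in WT PBS. Members of WT PBS were sequenced more deeply, with a median of 2159 UMIs per cell in DJ-1 KO OVA, 2363 in WT OVA and 4365 in WT PBS. Brought to 1000 UMIs, their median number of genes per cell was 622 in DJ-1 KO OVA, 619 in WT OVA and 594 in WT PBS. DJ-1 KO OVA and WT PBS shared 372 cell barcodes, against 5 and 6 shared by the other library pairs. Of the members, 3 of DJ-1 KO OVA and 0 of WT OVA and WT PBS carried a barcode shared with another library. Park7 gave 4 UMIs in the members of DJ-1 KO OVA, against 21 in WT OVA and 19 in WT PBS. As CPM, the counts scaled to an equal total of member UMIs per library, these are 14.8, 115 and 160, and Park7 was detected in 4 of 63, 17 of 50 and 15 of 25 members in the same order. Park7 was thus lowest in the library labelled DJ-1 KO OVA, although the deleted part of the gene is not given in the sources used here.

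Genes that the gate did not use also set the members apart. The 15 genes with the highest ratio of ILC2 to all other kept cells, each taken at its lowest of the 3 libraries, were led by Ccdc184, Stab2, Ccl1, Kit and Calca. Ccdc184 stood at 215 CPM in the members of DJ-1 KO OVA, 153 CPM in WT OVA and 270 CPM in WT PBS, and its ratio to other cells was 76.9, 107 and 280. Kit, the stem cell factor receptor, was detected in 32 of 63 DJ-1 KO OVA members, 22 of 50 WT OVA members and 16 of 25 WT PBS members. In B cells, which should lack it, Kit was found in 0 of 273, 1 of 840 and 2 of 618 cells. Those B cells held a median of 1144, 1344.5 and 3032 UMIs. Every library showed Kit in a larger share of members than of B cells, which is a description, since Kit was picked for its ratio. Kit was not confined to members, and in WT PBS NK cells held 87 of its 270 UMIs and members 41. The other leading genes were Hs3st1, Csf2, Gcnt1, Ramp3, Slc7a8, Nrgn, Cxcr6, Il2ra, Ltb4r1 and Igsf5. Csf2 encodes GM-CSF, Cxcr6 a chemokine receptor of resident lymphocytes, Il2ra the IL-2 receptor alpha chain, and Ramp3 a partner of the calcitonin-family receptors. These genes were chosen for their ratio, so they describe the members and test nothing.

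The same 15 genes were counted cell by cell, as a description, since they were chosen for being higher in members than in all other cells. With every cell brought to 1000 UMIs, at least 3 of the 15 were detected in 55.6% of DJ-1 KO OVA members, 55.1% of WT OVA members and 83.3% of WT PBS members. Thinning left out 0, 1 and 1 shallower members, and the unthinned shares were 81.0%, 70.0% and 92.0%. Cells that met the positive gate but held Cd3d, Cd3e or Cd3g, called CD3-positive counterparts here, reached 9.30%, 5.99% and 7.09% after thinning, and 38.5%, 32.3% and 28.4% before it. After thinning, NK cells reached 0% in all 3 libraries and B cells at most 0.391%. Members of WT PBS stood above those of both OVA libraries. Not each of the 15 genes was higher in members than in the counterparts of every library. Il2ra in WT OVA gave 32 of 183150 UMIs in members and 169 of 954054 in counterparts. Ltb4r1 in DJ-1 KO OVA gave 39 of 269515 and 137 of 1039036, whereas Ccdc184 gave 58 and 15 UMIs there.

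**Figure D1:**
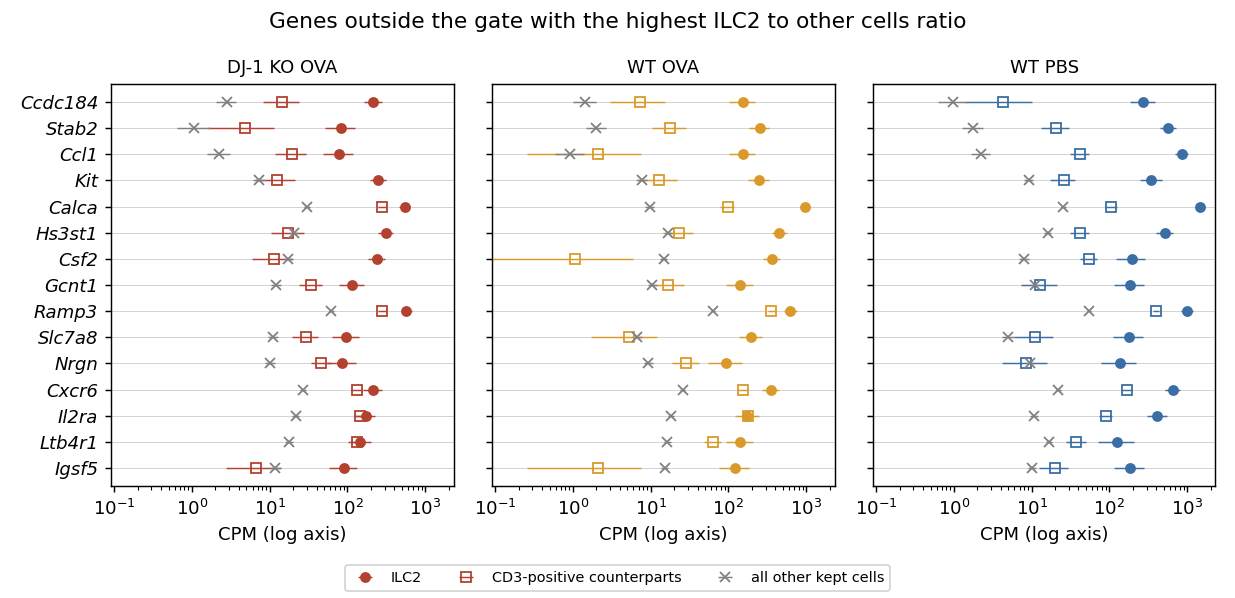
CPM on a log axis of the 15 leading genes in DJ-1 KO OVA, WT OVA and WT PBS (panels left to right), in ILC2 members (filled circles), CD3-positive counterparts (open squares) and all other kept cells, which include those counterparts (grey crosses), with exact 95% Poisson intervals. Ccdc184 stands at 215, 153 and 270 CPM in members and at 2.80, 1.43 and 0.963 CPM in all other kept cells.

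Several defining ILC2 genes were at or near 0. Nmur1, the neuromedin U receptor, gave 0 UMIs in DJ-1 KO OVA, 1 in WT OVA and 1 in WT PBS. Ptgdr2, the prostaglandin D2 receptor, gave 0, 1 and 0 UMIs, and the retinoid receptor gene Rxrg gave 1, 0 and 0. Klrg1, a surface marker of mature ILC2s, was found in 12 of 63 DJ-1 KO OVA members, 4 of 50 WT OVA members and 6 of 25 WT PBS members. Surface genes that ILC2s share with T cells were common. Thy1 was detected in 38, 34 and 21 members, and the costimulatory receptor gene Icos in 40, 33 and 18. Arg1, the arginase expressed by lung ILC2s, was detected in 23 of 63, 17 of 50 and 18 of 25 members, against 3 of 273, 0 of 840 and 1 of 618 B cells. Gata3 and Il1rl1 were required by the gate and Kit and Calca were picked for their ratio, so their presence is no check of the label.

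Some members carried T cell genes. Cd4, Cd8a, Cd8b1 or Foxp3 was detected in 8 of 63 DJ-1 KO OVA members, 7 of 50 WT OVA members and 0 of 25 WT PBS members. In the CD3-positive counterparts the shares were 56.3%, 63.5% and 70.2%. Foxp3, the factor of regulatory T cells, was found in 5, 2 and 0 members. Lef1, a transcription factor of T cells, was found in 6, 2 and 2 members, and Rag1, Rag2, Dntt or Ptcra, genes of developing T cells, in 1, 0 and 0. Cells just inside the gate, with exactly 2 of the 7 genes, numbered 14 in DJ-1 KO OVA, 9 in WT OVA and 2 in WT PBS. Arg1 was found in 2, 0 and 0 of these cells and Calca in 3, 2 and 0, and Lef1 stood at 9.75, 0 and 0 CPM. Cells just outside it, with exactly 1 of the 7, numbered 14, 8 and 2. None of those held Arg1 or Calca, and Lef1 stood at 245, 557 and 196 CPM in them. Other T cell genes did not mark the edge. Cd28 was found in 7, 5 and 1 cells just inside and 6, 6 and 1 just outside, Cd4 in 2, 3 and 0 inside and 3, 2 and 0 outside, and Foxp3 in 3, 1 and 0 inside and 1, 0 and 0 outside.

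A few large members also carried RNA of other lineages, and these weigh on every summed value. In 7 of 63 DJ-1 KO OVA members, 7 of 50 WT OVA members and 2 of 25 WT PBS members, over 2% of the UMIs came from epithelial and mesenchymal, myeloid or MHC class II genes. These cells held 45.9%, 26.8% and 18.5% of all ILC2 UMIs of their libraries. In DJ-1 KO OVA the largest had 65171 UMIs, 43.1% of them from those genes, and epithelial genes led in 4 of the 7. The 3 members in shared barcodes were among them. In WT OVA, myeloid genes led in 3, MHC class II genes in 3 and epithelial genes in 1 of the 7, and in WT PBS myeloid genes led in both. The club cell transcript Scgb1a1 gave at least 1 UMI in 59 of 63, 42 of 50 and 21 of 25 members, and also in 88.6%, 81.7% and 83.0% of B cells. A cell carrying such RNA may be a mixed droplet or may have taken up free RNA, which cannot be told apart here. Each result below is therefore given over all members and, where it moved, over the members at or below 2%, the purer ones, which numbered 56 in DJ-1 KO OVA, 43 in WT OVA and 23 in WT PBS.

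**Figure D2:**
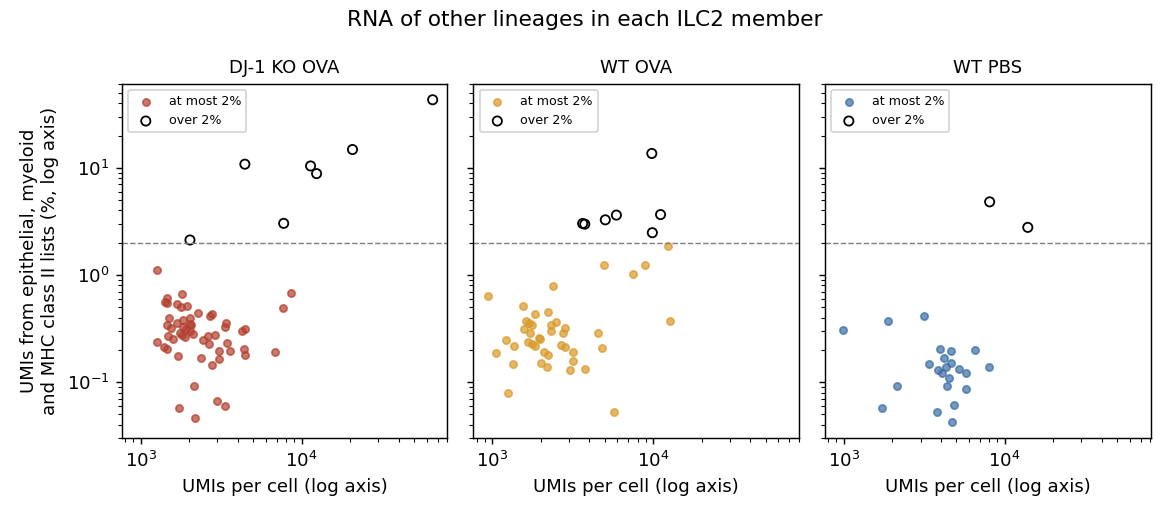
UMIs per ILC2 member (x, log axis) against the percentage of its UMIs from epithelial and mesenchymal, myeloid and MHC class II genes (y, log axis) in DJ-1 KO OVA, WT OVA and WT PBS. Open circles lie over the dashed line at 2%, numbering 7, 7 and 2, and the largest reaches 43.1% in DJ-1 KO OVA.

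ILC2s made up the largest share of cells in DJ-1 KO OVA. They were 1.42% of kept cells in DJ-1 KO OVA (63 of 4441, exact 95% interval 1.09 to 1.81). The share was 0.821% in WT OVA (50 of 6092, 0.610 to 1.08), against 0.640% in WT PBS (25 of 3908, 0.414 to 0.943). The share in DJ-1 KO OVA was 1.73 times that in WT OVA, with an interval of 1.17 to 2.56. The share in WT OVA was 1.28 times that in WT PBS, and its interval of 0.779 to 2.16 spans 1. Both ratios use the same WT OVA library. Among kept cells with Ptprc and Il7r UMIs, members were 7.61% in DJ-1 KO OVA, 4.45% in WT OVA and 2.6% in WT PBS. Over that denominator DJ-1 KO OVA was 1.71 times WT OVA (1.16 to 2.53) and WT OVA was 1.71 times WT PBS (1.04 to 2.88).

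The gate asks both for detected genes and for genes at 0, and depth bears on each. Kept cells of at least 1000 UMIs were also brought to 1000 UMIs before the gate. The shares were then 1.35% in DJ-1 KO OVA (47 of 3469), 0.491% in WT OVA (28 of 5697) and 0.186% in WT PBS (7 of 3773). The order was the same and the gaps were wider. However, 972, 395 and 135 shallower cells were left out, so the cells counted differ from those above, and the WT PBS share rests on 7 cells. The members with at most 2% of UMIs from other lineages were 1.26%, 0.706% and 0.589% of kept cells. For comparison, the CD3-positive counterparts were 3.92% of kept cells in DJ-1 KO OVA, 2.74% in WT OVA and 3.61% in WT PBS, an order in which WT OVA was lowest.

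**Figure D3:**
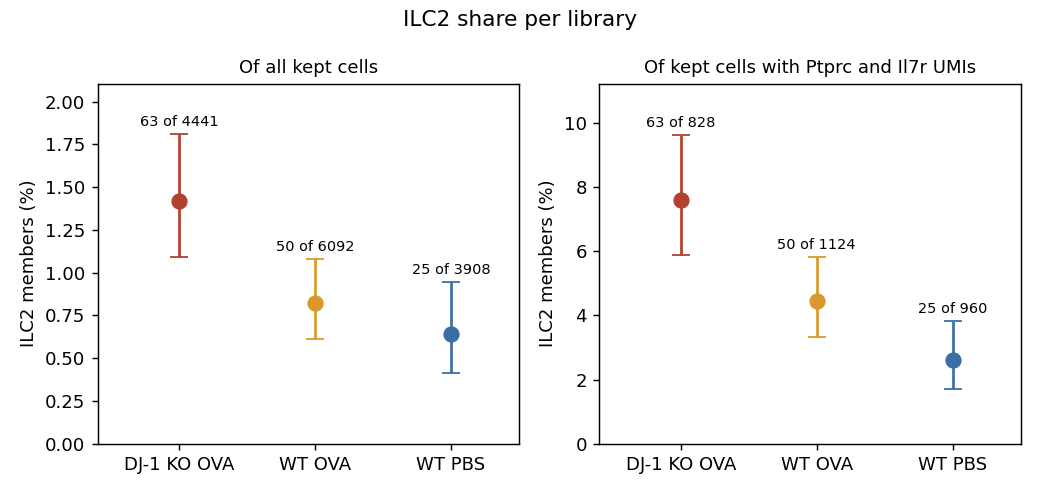
ILC2 members as a percentage of all kept cells (left) and of kept cells with Ptprc and Il7r UMIs (right) in DJ-1 KO OVA, WT OVA and WT PBS, 1 library each, with exact 95% binomial intervals. The shares are 1.42%, 0.821% and 0.640% on the left and 7.61%, 4.45% and 2.6% on the right.

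The type 2 cytokine genes came from a small number of members in every library. Il5, Il13 and Il4 lie together on mouse chromosome 11 in the GRCm38.p6 annotation, Il4 at 53612460 to 53618665, Il13 at 53631323 to 53634702 and Il5 at 53720794 to 53725103, with the DNA repair gene Rad50 between Il13 and Il5. Il5 was detected in 10 of 63 DJ-1 KO OVA members, 7 of 50 WT OVA members and 8 of 25 WT PBS members. It stood at 100 CPM (66.0 to 146) in DJ-1 KO OVA, 273 CPM (203 to 360) in WT OVA and 186 CPM (116 to 281) in WT PBS. The highest cell held 12, 18 and 8 Il5 UMIs in the same order, or 44.4%, 36.0% and 36.4% of the total. WT OVA was thus highest for Il5 in summed level, while its share of Il5-positive members was not above that of the others.

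Il13 was rarer still. It was detected in 6 of 63 DJ-1 KO OVA members, 2 of 50 WT OVA members and 3 of 25 WT PBS members, at 89.0 CPM (57.1 to 132), 49.1 CPM (22.5 to 93.3) and 152 CPM (90.0 to 240). A single cell gave 15 of 24 Il13 UMIs in DJ-1 KO OVA, 5 of 9 UMIs in WT OVA and 11 of 18 UMIs in WT PBS. WT OVA was lowest, and the level in each library hung on 1 or 2 cells. In WT OVA the 2 cells held 5 and 4 UMIs. Neither Il5 nor Il13 was found in any of the 273, 840 and 618 B cells, a count of 0 whose exact 95% intervals reach up to 1.34%, 0.438% and 0.595%. Il4 gave 0 UMIs in DJ-1 KO OVA, 0 in WT OVA and 1 in WT PBS, and Il9 gave 0 in all. The floor of 3 UMIs per library is 11.1, 16.4 and 25.3 CPM, so lower levels of Il4 and Il9 were not detectable at this depth.

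Every member with Il13 also held Areg, in 6 of 6 such cells of DJ-1 KO OVA, 2 of 2 in WT OVA, and 3 of 3 such WT PBS cells. Areg was found in 36 of 63, 25 of 50 and 17 of 25 members in all. Members with Il13 held a median of 3411, 5844 and 5780 UMIs, against 2038, 2328.5 and 4351.5 in those without. Il13, Il5 and Areg are gate genes, so their joint detection is a description of few cells. Il13 and Il5 were found together in 2, 1 and 3 members. Calca, which encodes the neuropeptide CGRP and lies on chromosome 7 (114625981 to 114636910), was detected in 28 of 63, 22 of 50 and 17 of 25 members. Its level was 542 CPM (457 to 637) in DJ-1 KO OVA, 977 CPM (839 to 1130) in WT OVA and 1460 CPM (1250 to 1690) in WT PBS. Calca was lowest in DJ-1 KO OVA and highest in WT PBS. Over the members at or below 2% it stood at 858 CPM (714 to 1020), 1080 CPM (913 to 1270) and 1530 CPM (1300 to 1800), and the intervals of both OVA libraries then overlap. Calca was found in 8 of the 10 Il5-positive members of DJ-1 KO OVA, 4 of 7 in WT OVA, and 7 of 8 such WT PBS members.

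Areg and Csf2 did not follow the same order. Areg stood at 842 CPM in DJ-1 KO OVA, 1430 CPM in WT OVA and 1410 CPM in WT PBS, and without the members rich in other RNA at 1410, 1500 and 1730 CPM, so DJ-1 KO OVA lay below WT OVA by a clear margin only over all members. Csf2, the GM-CSF gene, stood at 237 CPM in DJ-1 KO OVA, 360 CPM in WT OVA and 194 CPM in WT PBS, in 12 of 63, 12 of 50 and 6 of 25 members. Its highest cell held 21, 18 and 10 UMIs. Leaving out the members rich in other RNA, Csf2 stood at 432, 366 and 238 CPM, so that DJ-1 KO OVA and not WT OVA was highest. Arg1 stood at 271 CPM in DJ-1 KO OVA, 175 CPM in WT OVA and 312 CPM in WT PBS, and without those members at 487, 216 and 342 CPM. WT OVA was lowest for Arg1 in both cases, while the highest was WT PBS over all members and DJ-1 KO OVA without those rich in other RNA.

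**Figure D4:**
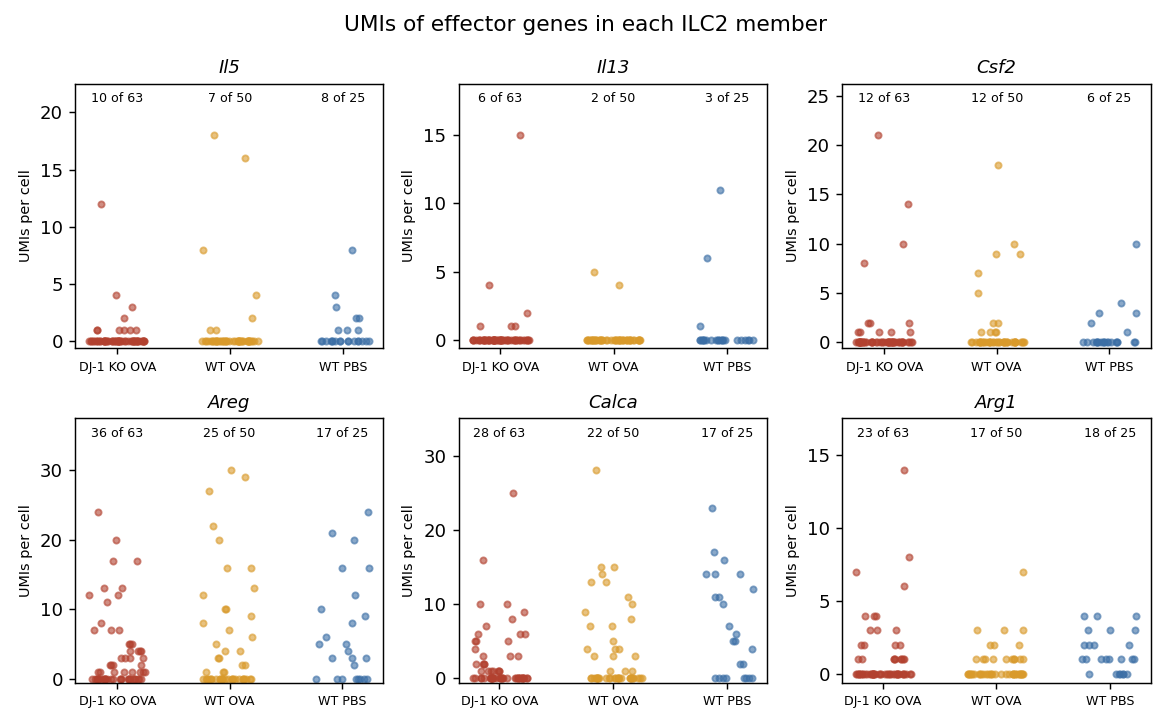
UMIs per cell of Il5, Il13, Csf2, Areg, Calca and Arg1 in every ILC2 member of DJ-1 KO OVA, WT OVA and WT PBS (points, spread sideways for visibility), with the number of members holding at least 1 UMI above. Il13 lies in 6 of 63, 2 of 50 and 3 of 25 members, and 1 cell of each library holds most of it.

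The members' part in the lung's supply of each transcript differed between libraries. Of all Il13 UMIs in kept cells, members held 24 of 169 in DJ-1 KO OVA (14.2%, 9.32 to 20.4), 9 of 11 UMIs in WT OVA (81.8%, 48.2 to 97.7) and 18 of 19 UMIs in WT PBS (94.7%, 74.0 to 99.9). The CD3-positive counterparts held 66.9%, 9.09% and 5.26%. In DJ-1 KO OVA the larger part of Il13 thus lay in CD3-positive cells, whereas in both wild-type libraries it lay in ILC2s, although those libraries held only 11 and 19 Il13 UMIs in all. Il13, Il5 and Areg are gate genes, so holding them helped to make a cell a member or a counterpart. Their shares are therefore partly set by the gate and serve as a description. For Il5, members held 33.8% in DJ-1 KO OVA, 80.6% in WT OVA and 55.0% in WT PBS, and the CD3-positive counterparts 53.8%, 8.06% and 40.0%. The 16 Il5 UMIs of the counterparts in WT PBS all lay in 1 cell. For Kit the members held 35.4%, 19.6% and 15.2%, and NK cells 1.59%, 10.0% and 32.2%. For Areg the members held 7.93%, 8.18% and 11.2%. Arg1 was 4.79% ILC2-derived in DJ-1 KO OVA, 26.4% in WT OVA and 36.6% in WT PBS. These percentages turn on other cells as much as on the members, and cells from 1 pool are not replicates.

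OVA challenge of wild-type mice was compared with saline. In WT OVA the members held less of several resident ILC2 transcripts than in WT PBS, among them Ccl1, Stab2, Furin, Cxcr6 and Il2ra, and more Cxcr4, Ly6a, Hist1h1c and Ctla4. Of the 31 ILC2 identity genes outside the gate, 21 had at least 20 UMIs over both libraries. Of these, 1 was past 2-fold higher and 6 past 2-fold lower, where 11.0% of 2374 tested genes were past 2-fold higher and 5.35% lower. Their median log2 ratio was -0.75, against 0.02 over all tested genes. Without the members rich in other RNA, 1 was past 2-fold higher and 7 lower of 20, with a median of -0.64, against 11.0% and 7.41% of all 1821 genes.

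Stab2, which encodes a scavenger receptor known from endothelium, stood at 251 CPM in WT OVA and 574 CPM in WT PBS, a ratio of 0.438 (0.294 to 0.646). Furin, a protease that matures secreted factors, stood at 683 CPM in WT OVA and 2090 CPM in WT PBS, a ratio of 0.326 (0.261 to 0.406). It was detected in 31 of 50 members of WT OVA and 21 of 25 of WT PBS. Il2ra was at 0.423 times its WT PBS level (0.262 to 0.673), with 175 CPM in WT OVA and 413 CPM in WT PBS. Nfkb1 was at 0.503 (0.420 to 0.603), with 1180 CPM in WT OVA and 2350 CPM in WT PBS. The intervals of these ratios all lie below 1, and each was lower still without the members rich in other RNA. With members thinned to 1000 UMIs the log2 ratio of Stab2 was -0.41, in place of -1.19, and with cells weighted alike it was -0.70. Ly6a was the 1 identity gene past 2-fold higher, at 284 CPM in WT OVA and 101 CPM in WT PBS (2.80-fold, 1.48 to 5.77). Among the gate genes, given as a description, Rora stood at 1660 CPM in WT OVA and 3080 CPM in WT PBS, Gata3 at 1200 and 1750 CPM, and Il1rl1 at 841 and 793 CPM.

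Of 26 effector cytokine and ligand genes, 13 were measurable in this comparison. None was past 2-fold higher and 4 were past 2-fold lower, namely Il13, Ccl1, Ccl3 and Ccl5, with a median log2 ratio of -0.58. Over all tested genes, 11.0% were past 2-fold higher and 5.35% lower, with a median of 0.02. Ccl1, a chemokine for CCR8-bearing cells, stood at 153 CPM in WT OVA and 852 CPM in WT PBS, a ratio of 0.179 (0.114 to 0.275). It was detected in 7 of 50 and 7 of 25 members, and 1 cell held 41.6% of it in WT PBS. Ccl5, a chemokine of activated lymphocytes, stood at 218 CPM in WT OVA and 1040 CPM in WT PBS, a ratio of 0.211 (0.144 to 0.303), and 1 cell held 57.7% of it in WT PBS. Genes of other lymphocytes moved with it, and their part in the Ccl5 value was not tested. Gzma, a granzyme gene of cytotoxic cells, gave 7 UMIs in WT OVA and 83 in WT PBS, in 2 members each. Il17a, a cytokine gene of type 3 lymphocytes, gave 0 UMIs in WT OVA and 32 in 1 member of WT PBS. The 19 measured genes of the ILC1, NK and ILC3 list summed to 245 CPM in DJ-1 KO OVA, 388 CPM in WT OVA and 1600 CPM in WT PBS, with Tbx21 at 0 in both OVA libraries. Csf2 was 1.86-fold higher in WT OVA (1.14 to 3.13), but 1.54-fold (0.918 to 2.64) without the members rich in other RNA. Ltb, which encodes lymphotoxin beta, was 1.56-fold higher (1.10 to 2.24) and Il5 1.47-fold, with an interval of 0.875 to 2.55 that spans 1. The list changed with the members counted. All 46 Ccl3 UMIs of WT PBS lay in 1 cell rich in myeloid RNA, and without such cells the list's median was 0.33, with 2 genes past 2-fold higher and 3 lower. Over all genes the shares were then 11.0% higher and 7.41% lower.

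Among receptors, the counts are read against the 16.4% of all tested genes past 2-fold in either direction. Of 18 measurable alarmin and cytokine receptors, 0 were past 2-fold higher and Il17rb and Il2ra were past 2-fold lower. Il17rb, a chain of the IL-25 receptor, gave 7 UMIs in WT OVA and 13 in WT PBS (ratio 0.349, 0.118 to 0.940). Of 10 lipid, neuropeptide and hormone receptors, Calcrl and S1pr1 were past 2-fold higher and Ptgir past 2-fold lower. Ptgir, the prostacyclin receptor gene, gave 13 UMIs in WT OVA and 26 in WT PBS (ratio 0.324, 0.153 to 0.653). Of 13 costimulatory and inhibitory genes, Cd28 and Ctla4 were past 2-fold higher and Socs2 past 2-fold lower. Ctla4, an inhibitory receptor gene, gave 27 UMIs in 11 of 50 members of WT OVA and 1 UMI in 1 of 25 of WT PBS. Cd28, a T cell costimulatory receptor gene, gave 35 UMIs in 10 members of WT OVA and 2 UMIs in 2 members of WT PBS. Cd4, Cd8a, Cd8b1 or Foxp3 marked 7 of 50 members of WT OVA and 0 of 25 of WT PBS, and without such cells Ctla4 had under 20 UMIs over both libraries and no ratio was taken, as also with at least 3 gate genes, which left out Cd28 and S1pr1 as well.

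Of 14 measurable trafficking and adhesion genes, Cxcr4, Klf2 and S1pr1 were past 2-fold higher and Rgs2 past 2-fold lower, against 11.0% and 5.35% of all tested genes. The median log2 ratio of the list was -0.04, with 7 genes above 0 and 7 below. Cxcr4, a homing receptor gene, stood at 557 CPM in WT OVA and 186 CPM in WT PBS (3.0-fold, 1.88 to 5.0). S1pr1, which guides exit from tissue, gave 30 UMIs in 10 of 50 members of WT OVA and 0 in WT PBS, and was at least 6.47-fold higher against the floor of 3 UMIs. Klf2, a factor that sustains S1pr1, gave 43 UMIs in 15 members of WT OVA and 6 UMIs in 3 members of WT PBS. The 3 genes were past 2-fold higher without the members rich in other RNA as well.

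MHC class II genes set WT OVA members apart in sum, but only a minority of cells carried them. Cd74, the invariant chain, stood at 2870 CPM in WT OVA and 33.7 CPM in WT PBS, and H2-Aa at 1390 CPM and 8.44 CPM. All 5 measurable class II genes were past 2-fold higher. Cd74 was detected in 15 of 50 members of WT OVA and 4 of 25 of WT PBS. Members chosen for low class II, myeloid and epithelial RNA still held 1170 CPM of Cd74 in WT OVA and 41.4 CPM in WT PBS. Since those members were picked with class II genes, that value describes the rest of the cells and no more.

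Among genes with at least 50 UMIs and at least 2 times the level of other kept cells, the highest ratios were those of Hist1h1c, Ifi30, Cxcr4, Plac8, Ly6a, Fam46a, Crip1, Gm2a, Birc2 and Hmgb2. Hist1h1c, a linker histone gene, stood at 366 CPM in WT OVA and 50.6 CPM in WT PBS (7.23-fold, 3.15 to 20.4). Crip1, a small LIM domain protein gene, stood at 2540 CPM in WT OVA and 995 CPM in WT PBS (2.56-fold, 2.08 to 3.16). The lowest were Fn1, Ccl1, Gem, Pim3, Ptpn13, Furin, Ikzf3, Ccl3, Cdk11b and Ccnd2. Gem, a small GTPase gene, was at 0.238 (0.119 to 0.450), Pim3, a kinase gene, at 0.277 (0.164 to 0.455) and Ccnd2, cyclin D2, at 0.355 (0.235 to 0.529). Without the members rich in other RNA, 8 of the 10 higher genes were past 2-fold, the others being Ifi30 and Gm2a. On the lower side 8 of 10 were, the others being Ccl3, whose direction turned, and Fn1, left with 4 UMIs in WT OVA and 1 in WT PBS. Over all members, 98.1% of Fn1 and 100% of Ccl3 in WT PBS came from 1 cell each.

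Immediate early genes, which mark recent stimulation or handling of cells, moved both ways. Of 21 measurable, 5 were past 2-fold higher in WT OVA (Jun, Egr1, Ier3, Dusp2 and Klf2) and 3 lower (Fosb, Fosl2 and Klf4), with a median log2 ratio of -0.27. Over all tested genes, 11.0% were past 2-fold higher and 5.35% lower, with a median of 0.02. Egr1 stood at 530 CPM in WT OVA and 194 CPM in WT PBS, and Fosb at 808 and 1700 CPM. The direction of Fosb turned with all cells thinned before the gate (log2 ratio 0.38). Without the members rich in other RNA, 4 of 20 immediate early genes were past 2-fold higher (Fos, Egr1, Dusp2 and Klf2). A further 4 were past 2-fold lower (Fosb, Fosl2, Atf3 and Klf4), and Jun was 1.35-fold higher (0.849 to 2.17). Over all genes the shares were then 11.0% higher and 7.41% lower. Interferon response genes were sparse. Of 17, 4 were measurable, and Bst2 (2.91-fold, 1.18 to 8.63) and Ifi27l2a (4.27-fold, 1.66 to 14) were past 2-fold higher. With 1 library per group, the differing depth of the members and the challenge cannot be told apart. With members thinned to 1000 UMIs, 540 genes kept 20 UMIs, in place of 2374. Of these, 50 were past 2-fold higher and 46 lower, in place of 262 and 127.

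DJ-1 knockout mice were compared with wild-type mice under the same OVA challenge. In DJ-1 KO OVA the members held more Ctla4, Traf4 and Padi2 and less Il5, Ccl5, Plac8 and Crip1 than in WT OVA. Arg1 was 1.55-fold higher (1.01 to 2.43) over all members, and past 2-fold higher once the members rich in other RNA were left out. Of 3544 tested genes, 9.31% were past 2-fold higher and 8.10% past 2-fold lower, and the median log2 ratio of all genes was -0.11. Centred on that median, 386 genes were past 2-fold higher and 212 lower, in place of 330 and 287. Without the members rich in other RNA, 7.96% of 2363 genes were past 2-fold higher and 6.18% lower, with a median of 0.09.

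Of 23 measurable identity genes, Itgae was past 2-fold higher and Ly6a and Stab2 were past 2-fold lower, with a median log2 ratio of -0.03. Over all tested genes, 9.31% were past 2-fold higher and 8.10% lower, with a median of -0.11. Itgae, the integrin of intraepithelial lymphocytes, gave 21 UMIs in 14 of 63 members of DJ-1 KO OVA and 5 UMIs in 5 of 50 of WT OVA (2.85-fold, 1.05 to 9.69). Stab2 stood at 81.6 CPM in DJ-1 KO OVA and 251 CPM in WT OVA (ratio 0.325, 0.186 to 0.551). The ratio of Stab2 was 0.674 without the members rich in other RNA, with an interval of 0.371 to 1.21 that spans 1. Without those members, 5 of 23 were past 2-fold higher and 0 lower, with a median of 0.64. These were Pparg, Arg1, Cd69, Ccdc184 and Itgae. Over all genes the shares were then 7.96% higher and 6.18% lower, with a median of 0.09. Arg1 then stood at 487 CPM in DJ-1 KO OVA and 216 CPM in WT OVA (2.25-fold, 1.44 to 3.6), in place of 271 and 175 CPM over all members. Pparg, a lipid-sensing nuclear receptor gene, gave 19 UMIs in DJ-1 KO OVA, against 4 in WT OVA, in those cells. Cd69, a retention and activation marker gene, stood at 364 CPM in DJ-1 KO OVA and 179 CPM in WT OVA (2.03-fold, 1.23 to 3.44).

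The gate used the genes Il1rl1, Gata3 and Rora to choose members, so their values are a description. Il1rl1 stood at 1080 CPM in DJ-1 KO OVA and 841 CPM in WT OVA, and without the members rich in other RNA at 1900 and 888 CPM. Gata3 stood at 1210 CPM in DJ-1 KO OVA and 1200 CPM in WT OVA, and without those members at 2120 and 1360 CPM. Rora stood at 1420 CPM in DJ-1 KO OVA and 1660 CPM in WT OVA, and without them at 2560 and 1870 CPM. These 3 genes lay higher in DJ-1 KO OVA among the purer cells, whereas the gate genes Il5 and Areg, given with the effectors, stood at 0.488 (0.291 to 0.801) and 0.942 (0.772 to 1.15) times their WT OVA levels there.

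In summed level, Il5 and Ccl5 stood lower in DJ-1 KO OVA, while several other effector genes turned on which members were counted. Of 14 measurable, Tnf and Ccl4 were past 2-fold higher and Il5 and Ccl5 past 2-fold lower, with a median log2 ratio of -0.63. Over all tested genes, 9.31% were past 2-fold higher and 8.10% lower, with a median of -0.11. Il5, a gate gene, was detected in 10 of 63 members of DJ-1 KO OVA and 7 of 50 of WT OVA. The highest WT OVA cells held 18 and 16 of its 50 UMIs there, so its level hung on few cells. Il5 was at 0.367 times its WT OVA level (0.221 to 0.597), and at 0.488 (0.291 to 0.801) without the members rich in other RNA. It was no longer past 2-fold without both cells of shared barcodes, where its log2 ratio was -0.80, with at least 3 gate genes (-0.91) or with members thinned (-0.78). Ccl5 gave 4 UMIs in DJ-1 KO OVA, against 40 in WT OVA, a ratio of 0.068 (0.0177 to 0.188), and lay in 3 of 63 and 9 of 50 members. Calca was at 0.554 (0.442 to 0.694) over all members and at 0.793 (0.619 to 1.01) without those rich in other RNA, an interval that spans 1. Areg was at 0.591 (0.493 to 0.709) and then at 0.942 (0.772 to 1.15), and Csf2 at 0.659 (0.460 to 0.944) and then at 1.18 (0.801 to 1.75). Il13 was 1.81-fold higher, with an interval of 0.813 to 4.43 that spans 1, and 2.45-fold higher (1.10 to 5.99) without the members rich in other RNA, with 15 of its 24 UMIs in 1 cell. Tnf stood at 237 CPM in DJ-1 KO OVA and 98.3 CPM in WT OVA, but at 41.2 and 127 CPM without the members rich in other RNA, so its direction turned. The median of the list was then -0.12, with Il13 past 2-fold higher and Il5, Tnf, Ccl3 and Ccl5 past 2-fold lower. Over all genes the shares were then 7.96% higher and 6.18% lower.

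Ctla4 had the highest ratio of the genes ranked higher in DJ-1 KO OVA. It gave 150 UMIs in 28 of 63 members of DJ-1 KO OVA (557 CPM) and 27 UMIs in 11 of 50 of WT OVA (147 CPM), a 3.78-fold ratio (2.49 to 5.92), and a 5.09-fold one (3.34 to 8.06) without the members rich in other RNA. The CD3-positive counterparts held 995 CPM in DJ-1 KO OVA and 812 CPM in WT OVA, and Foxp3 was found in 5 of 63 and 2 of 50 members. Without cells holding Cd4, Cd8a, Cd8b1 or Foxp3 the log2 ratio of Ctla4 was 2.54, in place of 1.92, but with all cells thinned before the gate it was 0.61 and not past 2-fold. Tnfrsf4, the OX40 gene, was also past 2-fold higher, at 122 CPM in DJ-1 KO OVA and 43.7 CPM in WT OVA (2.80-fold, 1.27 to 7.02), with a log2 ratio of 0.67 when all cells were thinned before the gate. Irf4, a factor of activated lymphocytes, gave 31 UMIs in DJ-1 KO OVA, against 4 in WT OVA (5.27-fold, 1.86 to 20.5), and lay in 9 of 63 and 3 of 50 members.

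The other genes highest in DJ-1 KO OVA by the same ranking were Traf4, Padi2, Jag1, Lif, Ccnd2, Tmem123, Tppp3, Man2a2 and Ell2. Traf4, an adaptor of TNF receptor signalling, stood at 211 CPM in DJ-1 KO OVA and 76.4 CPM in WT OVA (2.77-fold, 1.52 to 5.38). Padi2, a peptidylarginine deiminase gene, stood at 249 CPM in DJ-1 KO OVA and 92.8 CPM in WT OVA (2.68-fold, 1.55 to 4.87). Without the members rich in other RNA, 8 of the 10 were past 2-fold higher, the others being Lif and Tppp3. The lowest were Plac8, Ifi30, Stab2, Sh3bgrl3, Arhgap30, Il5, Gm2a, Crip1, S100a4 and Odc1. Without those members Plac8, Sh3bgrl3, Il5 and Crip1 stayed past 2-fold lower. Plac8, a gene of circulating lymphocytes and myeloid cells, was at 0.118 (0.072 to 0.184) and then at 0.268 (0.157 to 0.441). Crip1 stood at 976 CPM in DJ-1 KO OVA and 2540 CPM in WT OVA (0.384, 0.328 to 0.447), a log2 ratio of -1.38. That ratio was -0.83 in thinned members, -0.88 with cells weighted alike and -0.43 with all cells thinned before the gate. It was not past 2-fold in these 3 settings.

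Of 16 measurable genes of the DJ-1 and NRF2 antioxidant response, Gclc and Prdx1 were past 2-fold higher and Park7 past 2-fold lower, near the 17.4% of all tested genes past 2-fold in either direction. Gclc, which makes the first enzyme of glutathione synthesis, stood at 660 CPM in DJ-1 KO OVA and 115 CPM in WT OVA (5.76-fold, 3.65 to 9.54), with 47.2% of the DJ-1 KO OVA UMIs in 1 cell. Without the members rich in other RNA it stood at 178 and 127 CPM (1.41-fold, 0.735 to 2.76), and none of 11 measurable genes of the list was past 2-fold. MHC class II genes were lower in DJ-1 KO OVA, with 5 of 6 past 2-fold lower and Cd74 at 1050 CPM in DJ-1 KO OVA and 2870 CPM in WT OVA. Epithelial and mesenchymal genes were past 2-fold higher in 10 of 13, against 9.31% of all tested genes. They made up 12.0% of the members' UMIs in DJ-1 KO OVA, 0.778% in WT OVA and 0.0962% in WT PBS. The largest DJ-1 KO OVA member alone held 65171 UMIs, 43.1% of them from epithelial and mesenchymal, myeloid or MHC class II genes. Without the members rich in other RNA, 2 of 6 were past 2-fold higher (Retnla and Dcn) and Sftpc was past 2-fold lower. Over all genes the shares were then 7.96% higher and 6.18% lower. Retnla, a secreted product of lung epithelium and macrophages in allergy, gave 35 UMIs in 29 of the 56 purer members of DJ-1 KO OVA and 1 UMI in the 43 of WT OVA. What such RNA contributes to the other ratios was not tested beyond leaving those cells out.

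**Figure D5:**
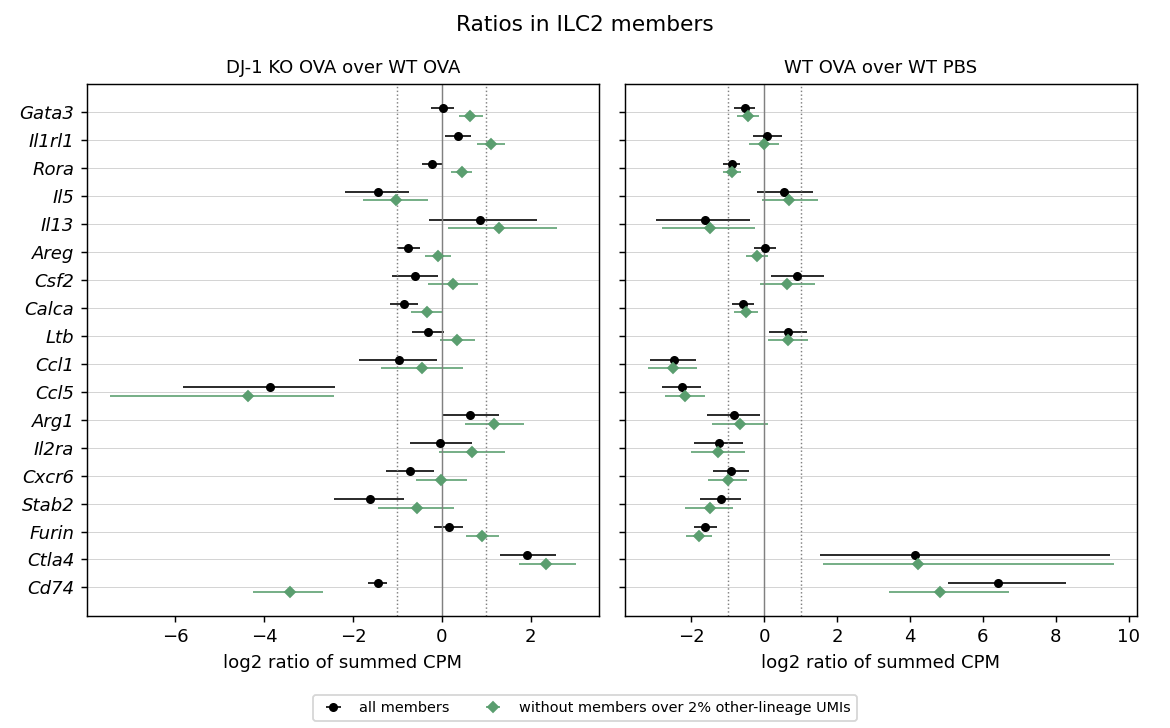
Log2 ratio of summed CPM in ILC2 members, DJ-1 KO OVA over WT OVA (left) and WT OVA over WT PBS (right), for 18 genes over all members (black circles) and without members over 2% other-lineage UMIs (green diamonds), with exact 95% intervals for counting error. Dotted lines mark 2-fold. Ctla4 lies at 1.92 and 2.35 on the left, Furin at -1.62 and -1.78 on the right, and Il1rl1, a gate gene, on the left moves across the line, to 1.10.

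Both comparisons use the same WT OVA library, so their values are set side by side here and no agreement between them is read. Furin stood at 761 CPM in DJ-1 KO OVA, 683 CPM in WT OVA and 2090 CPM in WT PBS. Cxcr4 stood at 275, 557 and 186 CPM in the same order, Ly6a at 141, 284 and 101 CPM, and Stab2 at 81.6, 251 and 574 CPM. With the members rich in other RNA left out, Furin stood at 1290, 687 and 2360 CPM, Cxcr4 at 446, 590 and 197 CPM, Ly6a at 233, 351 and 114 CPM, and Stab2 at 151, 224 and 632 CPM. Each order was the same in both sets of members, but the gaps between the OVA libraries moved. The ratio of DJ-1 KO OVA to WT OVA was then 1.88 (1.46 to 2.44) for Furin, in place of 1.11 (0.888 to 1.40). For Cxcr4 it was 0.757 (0.536 to 1.06) and for Ly6a 0.665 (0.415 to 1.06), both with intervals that span 1.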

How the data were processed

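Whole-lung cells of 3 mouse groups, 1 library each pooled over 3 mice, were profiled, per the labels' protocols, with 10x Chromium 3′ v3 chemistry. The authors deposited raw UMI counts per gene and barcode for 27998 genes. Per the file headers, software version 3.1.0 made them. Cell Ranger, STAR and the mm10 build are named in the submitters' processing notes, and the annotation release is not given in the sources used here. The libraries held 4666 barcodes and 17339386 UMIs (DJ-1 KO OVA), 6406 and 24438516 (WT OVA) and 4556 and 26548669 (WT PBS).

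The gate was applied to the counts, and UMIs were summed over members and scaled to CPM. Intervals are exact at 95% (Poisson for CPM, conditional binomial for ratios, Clopper-Pearson for shares). Genes with at least 20 UMIs over both libraries were tested against a 2-fold limit, with no p-value, and a count of 0 was set to a floor of 3 UMIs per library. Scripts were checked on simulated data. Doublets were called with Scrublet in scanpy 1.11.5 (expected rate 0.06) and removed only as an alternative. It called 3, 162 and 58 cells, of them 0, 3 and 1 members, in DJ-1 KO OVA, WT OVA and WT PBS. Its score limits were 0.571, 0.245 and 0.314 in the same order. The 0.0676% called in DJ-1 KO OVA is far under the expected rate, so the lack of calls among its members is no check on doublets.

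Of 413 genes in 25 lists, 402 were found in the matrices. The genes named are Park7, the gate's genes, list members, the 10 highest and 10 lowest ratios per comparison among genes with at least 50 UMIs and 2 times the level of other kept cells, and the 15 genes with the highest ratio of ILC2 to other cells. Left out of rankings were unnamed gene models and the genes of mitochondria, ribosomes, haemoglobins and immunoglobulins. The members and lists were chosen with earlier results of these data known. Gene positions are those of the RefSeq annotation of GRCm38.p6. Values were computed with Python 3.11.15, NumPy 2.4.6, SciPy 1.17.1 and pandas 2.3.3, and drawn with matplotlib 3.10.9.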

Additional observations from a re-analysis of the deposited data

How the results depend on the processing

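No paired analysis was possible because each group is 1 library. Of 120 values of the shares, gene counts and list medians, 94 moved by less than the limit set for them and 26 by more. Thinned to 1000 UMIs before the gate, with shallower cells left out, the share was 0.491% in WT OVA and 0.186% in WT PBS. For WT OVA over WT PBS, 262 genes were past 2-fold higher and 127 lower. These counts were 50 and 46 with members thinned, 24 and 34 with all cells thinned before the gate, 46 and 54 with at least 50 UMIs, and 1127 and 1004 with no filter. Against WT OVA, DJ-1 KO OVA had 330 genes higher and 287 lower. These counts were 74 and 47, 53 and 30, 85 and 86, and 1438 and 1405 under the same settings. Without members rich in other RNA they were 188 and 146. The lower count was 172 without both cells of shared barcodes, 185 with a gate without cytokines, 187 with at least 3 gate genes and 162 without cells holding Cd4, Cd8a, Cd8b1 or Foxp3. The effector list's median log2 ratio was 0.33 without members rich in other RNA (WT OVA over WT PBS) and 0.41 with cells thinned before the gate (DJ-1 KO OVA over WT OVA).

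Of 5555 log2 ratios of named genes with at least 20 UMIs under their setting, 4940 stayed within the limit, 599 moved and 16 turned from past 2-fold to the other direction. For WT OVA over WT PBS these turned to 2.33 for Ccl3, 3.04 for Lyz2 and 4.23 for Chil3 without members rich in other RNA, to 0.38 for Fosb with cells thinned before the gate, and to 0.05 for Klf4 with members thinned. In DJ-1 KO OVA against WT OVA, Tnf turned to -1.62, Ier3 to -0.61 and Gm2a to 0.22 without members rich in other RNA. Cd28 turned to 0.50 and Cxcr4 to 0.25 with cells thinned before the gate, and Itga4 to 0.27 and Bpifa1 to -0.18 with cells weighted alike. Without both cells of shared barcodes, Scd1 turned to -0.02, Ier3 to -0.23 and Sftpa1 to -3.62, and Ier3 to -0.02 with at least 3 gate genes. The cause of these turns was not tested. The settings without Cd4, Cd8a, Cd8b1 or Foxp3 cells and without members rich in other RNA were chosen after seeing the data. A gate without cells holding T cell receptor constant genes was not run, as these have no row under their symbols in the matrices used here.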
